A study of Mus musculus with 3 samples.

Results

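The mRNAs described here are those of 5 mouse genes that set or maintain DNA methylation: Dnmt1, Dnmt3a, Dnmt3b, Dnmt3l and Uhrf1. They were chosen by name, and every cytosine that the deposited tables list for any of their RefSeq mRNA models was kept. Rows were found for 4 of the 5 genes, among 13220 named genes with rows in all, and for 7 of the 27 curated mRNA models that the annotation gives these genes. Together they held 226 listed cytosines out of 4450412, of which 86 were listed in all 3 libraries. No cytosine of Uhrf1 was listed in any library, and Dnmt3b was listed in replicate 3 only. The data come from embryonic stem cells on the J1 background that are homozygous null for Tet1, Tet2 and Tet3. There were 3 samples of this 1 genotype, all grown on mouse embryonic fibroblast feeders with leukaemia inhibitory factor (ESGRO) and serum and then depleted of feeders, and no cells with intact Tet genes were analysed here. Poly(A)-selected RNA was treated with bisulfite, which turns unmodified cytosine into a base sequenced as thymine and leaves 5-methylcytosine and 5-hydroxymethylcytosine as cytosine. The unconverted share of a cytosine therefore holds both modifications and failed conversion.

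DNA methyltransferases place methyl groups on cytosine in DNA. Dnmt3a and Dnmt3b methylate new sites, and Dnmt3l, a relative without catalytic activity, stimulates both. Dnmt1 copies the pattern to the new strand after replication, and Uhrf1 recognises hemimethylated DNA and recruits Dnmt1 to it. Tet enzymes oxidise the methyl group and thereby oppose these proteins. Embryonic stem cells are known for expressing the de novo enzymes together with Dnmt3l, and several of these genes are transcribed from more than 1 promoter, which gives mRNAs that differ at the 5′ end.

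The listed cytosines of 2 models could be set against the genome, because RefSeq promoter windows (build GRCm38.p6) reach past the transcript start. All 5 genes had such windows, and a model was accepted where its cytosine positions, counted from an annotated start of its own gene, were exactly those of the window over a run of at least 6. The sequences show which stretches of these mRNAs the reads covered. Capitals mark cytosines listed in the tables.
Dnmt1 NM_001199433.1, positions 29 to 50, chr9:20952574-20952595, minus strand: CagCgtttggCgCgggCtgtgC
Dnmt3a NM_007872.4, positions 109 to 138, chr12:3807088-3807117, plus strand: CgagCCgggCCgCCCgaCCCgCCgggCCaC
In Dnmt1 all 6 cytosines of the stretch were listed, and 59 further listed cytosines lay beyond the end of the window. In Dnmt3a the match ran from position 67 to 140 and covered 30 listed cytosines, 16 of them in the printed stretch and 10 of those listed in all 3 libraries. The 2 further cytosines of this model, at positions 143 and 148, had no counterpart in the window. None of 32848 windows of other genes had the same cytosines at the same places in either case. The other 5 models were not matched, since their listed cytosines lay outside the windows or differed from them.

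All listed cytosines of these genes lay in short stretches. Dnmt3l was listed over positions 33 to 123 of NM_001284197.1, 51 to 127 of NM_019448.4 and 422 to 504 of NM_001284198.1. Dnmt3a was listed over positions 67 to 148 of NM_007872.4 and 89 to 174 of NM_153743.4. Dnmt1 was listed between positions 29 and 776 of NM_001199433.1, within a library with steps of up to 261 nt between neighbouring listed cytosines. Replicate 2 held only 13 of these Dnmt1 cytosines, at positions 29 to 67 with a summed coverage of 46 reads, against 56 cytosines and 192 reads in replicate 1 and 47 cytosines and 197 reads in replicate 3. Dnmt3b was listed over positions 1942 to 2002 of NM_001122997.2. These stretches are far shorter than an mRNA that encodes a protein of this family, so for the greater part of each mRNA no cytosine was listed.

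**Figure D1:**
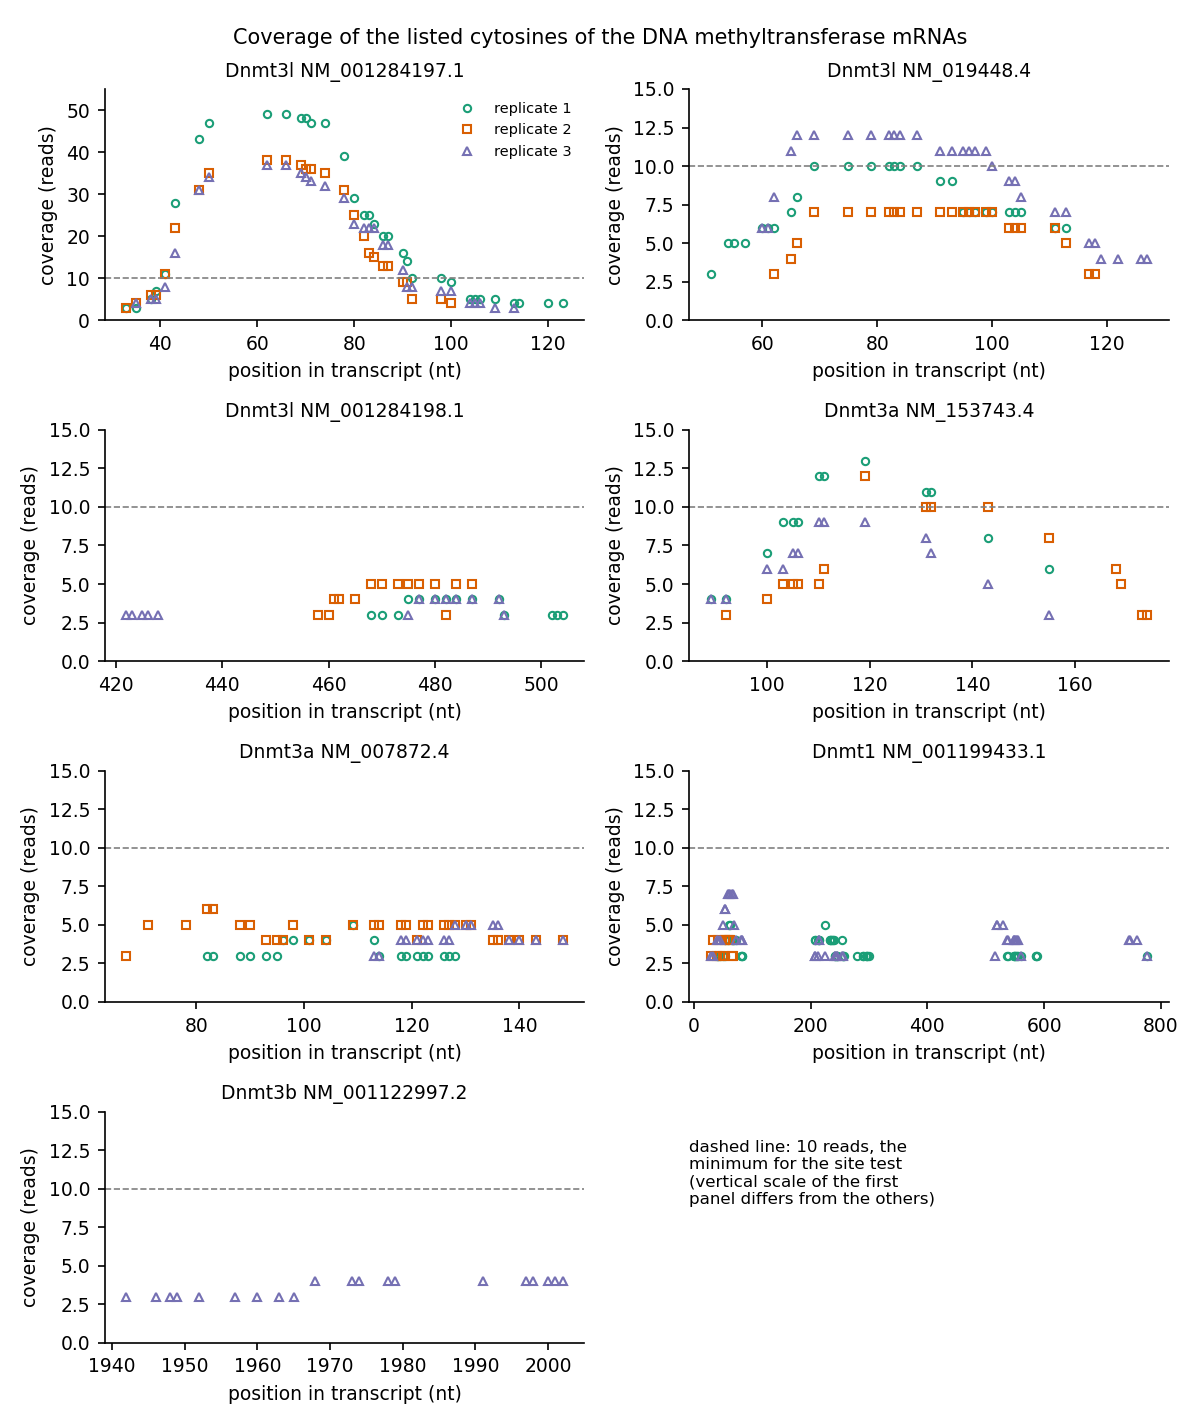
Coverage in reads (vertical) of every listed cytosine against its position in the transcript in nt (horizontal), for the 7 models with rows, in replicates 1 to 3. Coverage reaches 49 reads in Dnmt3l NM_001284197.1 and stays at 13 reads or fewer in the other 6 models; the dashed line marks the 10 reads needed for the site test.

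Low numbers of listed cytosines were common among genes with several mRNA models. Dnmt3a has 3 curated models in the annotation, Uhrf1 has 4, Dnmt1 has 5, Dnmt3l has 6 and Dnmt3b has 9. Across all genes with rows, the median number of listed cytosines was 88 for genes with 3 or more models and 291 for genes with 1 model. The quartiles overlapped, at 31 to 310 and 99 to 547. The last listed position had medians of 1451, 1300.5 and 1401 for genes with 3, 5 and 6 models. Dnmt3a (174), Dnmt1 (776) and Dnmt3l (504) ended earlier than these. Dnmt3b, with 9 models, ended at 2002, later than the median of 1264 of its class. Dnmt3l, with 92 entries, had more than 51.0% of the 153 listed genes that also have 6 models. Dnmt1, with 65, had more than 41.7% of its class, Dnmt3a, with 49, more than 32.2%, and Dnmt3b, with 20, more than 23.5%. A cytosine common to several models of a gene counts once for each in these numbers. Uhrf1 was among the 33.5% of genes with 4 models that had no row at all. Genes with several models did not lack rows more often. Rows were found for 69.3% of genes with 3 or more models and for 58.9% of genes with 1 model. The sources used here do not say how reads that fit several models were handled, so neither the absence of Uhrf1 nor the short Dnmt3b listing can be read as low expression.

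**Figure D2:**
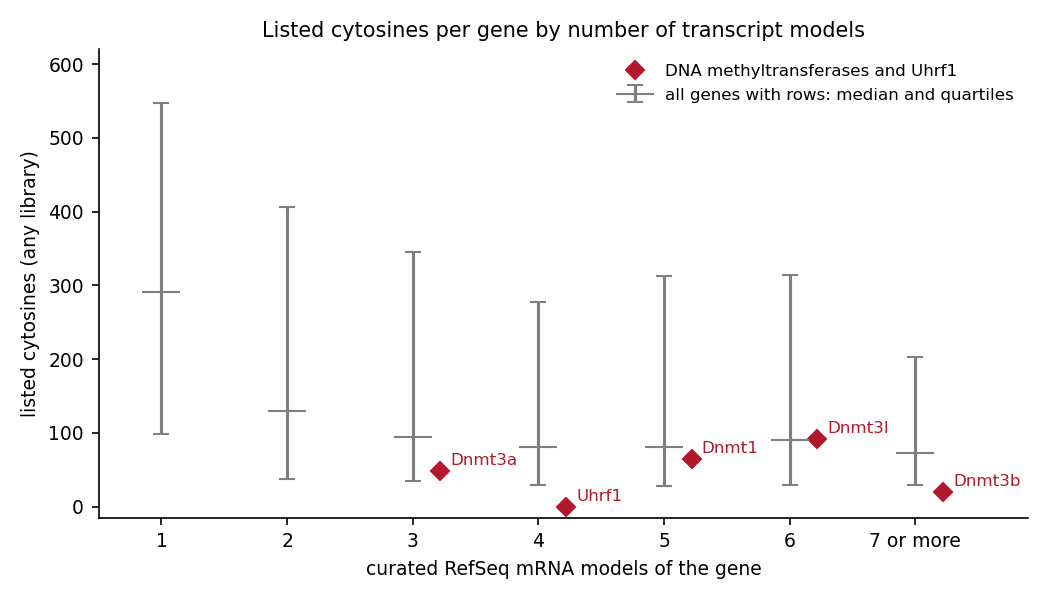
Listed cytosines per gene in any library (vertical) against the number of curated RefSeq mRNA models (horizontal), with diamonds for the 5 genes and grey marks for the median and quartiles of all genes with rows. The 4 listed genes have 20 to 92, against a median of 291 for genes with 1 model; Dnmt3l lies at the median of its class and Uhrf1 at 0.

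Among the de novo machinery, Dnmt3l, the catalytically inactive partner, had the highest coverage. Its mean coverage per listed cytosine was 12.7, 11.1 and 11.5 reads in replicates 1, 2 and 3. Dnmt3a had 5.44, 5.17 and 5.13 reads, and Dnmt1, the maintenance enzyme, 3.43, 3.54 and 4.19 reads. The 3 values of each gene did not overlap with those of its neighbour in this order. Dnmt3b had 3.55 reads in replicate 3, inside the range of Dnmt1, from which it did not differ beyond that spread. The mean over all listed cytosines was 38.9 ± 0.538 reads (SD, n = 3). Dnmt3l (11.8 ± 0.856 reads) ranked above 51.8% of the 11690 genes listed in all 3 libraries, Dnmt3a (5.25 ± 0.170) above 19.9% and Dnmt1 (3.72 ± 0.412) above 6.13% (SD, n = 3 for each). The tables list no cytosine with fewer than 3 reads, which keeps the lowest means near that floor. These levels describe the listed stretches of single models and do not give the abundance of a gene's mRNA as a whole. In bulk RNA, fewer cells and less RNA per cell cannot be told apart.

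Most Dnmt3l reads lay on NM_001284197.1. This model had a mean coverage of 20.9, 19.3 and 17.5 reads in replicates 1, 2 and 3, with peaks of 49, 38 and 37 reads. NM_019448.4 had 7.39, 6.04 and 8.97 reads, with peaks of 10, 7 and 12. NM_001284198.1 had 3.50, 4.36 and 3.46 reads. In every library the 3 models kept this order, with no overlap between them.

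By the spacing of their listed cytosines, the first 2 of these Dnmt3l models appear to run into the same sequence. The sequences themselves were not available. When NM_019448.4 was shifted by 13 nt, its listed cytosines from position 75 to 127 coincided with all those of NM_001284197.1 from 62 to 114, 24 cytosines in all, with none listed in 1 model alone over the 3 libraries together. Upstream of this stretch the spacing differed: NM_001284197.1 had 8 listed cytosines of its own between positions 33 and 50, and NM_019448.4 had 10 between 51 and 69. By this spacing, the common stretch was read next to a different 5′ end in each model. At its first cytosine, position 62 of NM_001284197.1 and 75 of NM_019448.4, coverage was 49, 38 and 37 reads on NM_001284197.1 and 10, 7 and 12 reads on NM_019448.4. NM_001284197.1 thus held 83.1%, 84.4% and 75.5% of the reads there, a mean of 81.0% ± 4.81 (SD, n = 3).

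The share on NM_001284197.1 was lower further downstream. It averaged 78.4% ± 5.15 at position 78, 67.8% ± 5.46 at position 87 and 51.5% ± 7.88 at position 100 (SD, n = 3 for each). At position 100 coverage was down to 9, 4 and 7 reads on NM_001284197.1 and 6, 5 and 7 on NM_019448.4, and the order of the models differed between libraries. Sums were taken over the common cytosines listed in both models in the same library, a set that differed between libraries. The share was then 78.3%, 76.2% and 66.8% in replicates 1, 2 and 3, or 73.8% ± 6.16 (SD, n = 3). It exceeded 50% in all 3 libraries, for which the exact two-sided sign-flip test gives p = 0.25, the smallest p that 3 libraries allow. Cytosines of this stretch share reads, so they are not independent counts. The part that the assignment of reads to models has in these shares was not tested.

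**Figure D3:**
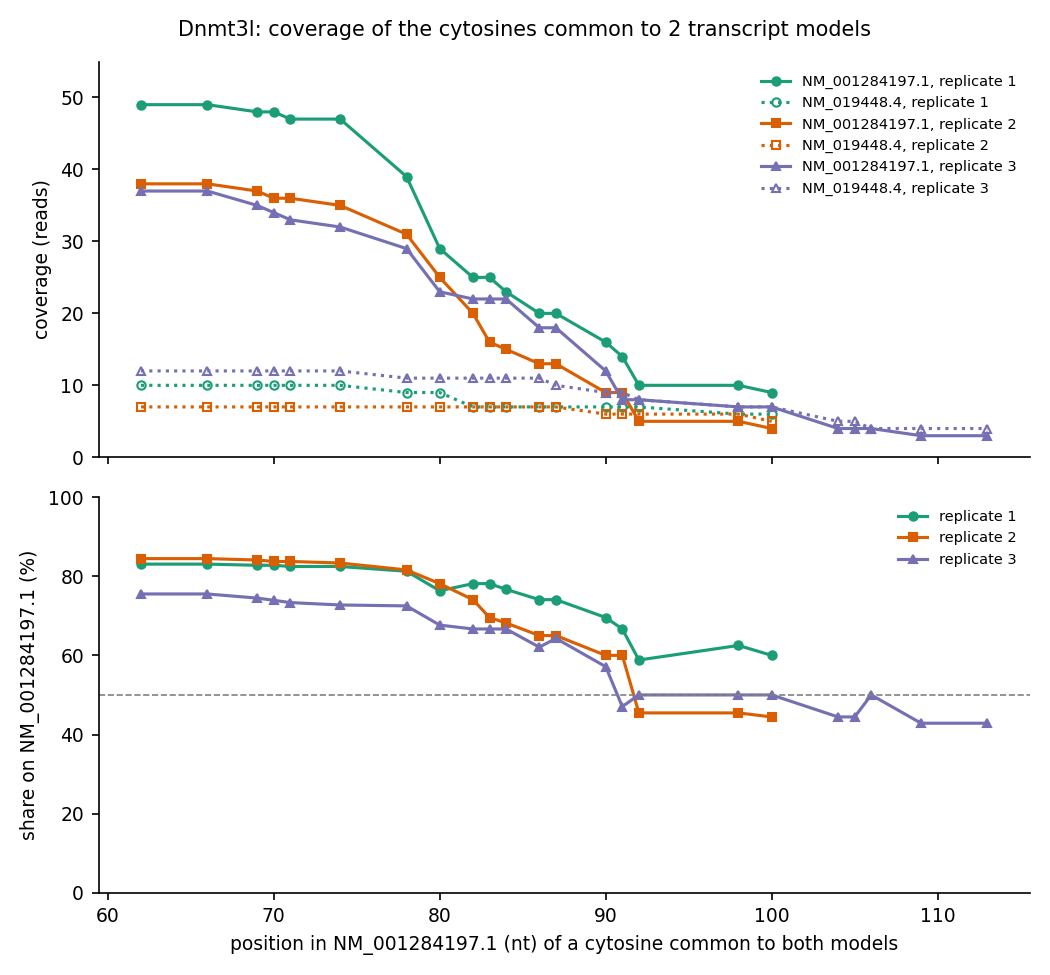
Upper panel, coverage in reads of the cytosines matched by spacing between 2 Dnmt3l models, by position in NM_001284197.1 in nt. NM_001284197.1 is filled and solid, NM_019448.4 open and dotted. The lower panel gives the share of these reads on NM_001284197.1 in percent, with a dashed line at 50%. The share is 75.5% to 84.4% at position 62 and 44.4% to 60.0% at position 100 in the 3 replicates.

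The 2 Dnmt3a models, from the de novo enzyme itself, had no common listed stretch. NM_153743.4 had a mean coverage of 8.85, 6.25 and 6.46 reads per listed cytosine, with peaks of 13, 12 and 9. NM_007872.4, whose stretch is printed above, had 3.33, 4.63 and 4.17 reads, with peaks of 5, 6 and 5. NM_153743.4 was higher in each library and the values did not overlap. Both models were measured in the same 3 libraries, for which the exact two-sided sign-flip test cannot give a p below 0.25.

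Nearly all cytosines of these mRNAs were converted. Summed coverage over the 226 cytosines and 3 libraries was 3613, of which 60 were unconverted, and 180 of the cytosines had no unconverted read. Dnmt3l was unconverted at 1.14%, 1.13% and 1.43% in replicates 1, 2 and 3, against 1.53%, 1.45% and 1.41% over the whole of each library. The Dnmt3l values lay below the library in replicates 1 and 2 and above it in replicate 3, and each library value was inside the 95% Wilson interval of its Dnmt3l value (0.636% to 2.03% in replicate 1).

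The other genes had fewer reads and wider intervals. Dnmt3a was unconverted at 2.16%, 4.03% and 0.629%, from 4, 10 and 1 unconverted reads. Replicate 2 stood above its library's 1.45% with a Wilson interval of 2.20% to 7.26%, whereas replicate 3 stood below its library. Dnmt1 was unconverted at 3.13%, 2.17% and 1.52%, from 6, 1 and 3 unconverted reads, above the library in all 3 but with every library value inside its interval. Dnmt3b had 4 unconverted in a summed coverage of 71 in replicate 3, or 5.63% (Wilson interval 2.21% to 13.6%). None of its cytosines had more than 4 reads, and 2 of the 4 unconverted lay at 1 cytosine, position 1968. These intervals cover counting error only and are too narrow, since neighbouring cytosines share reads and reads may be PCR copies.

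**Figure D4:**
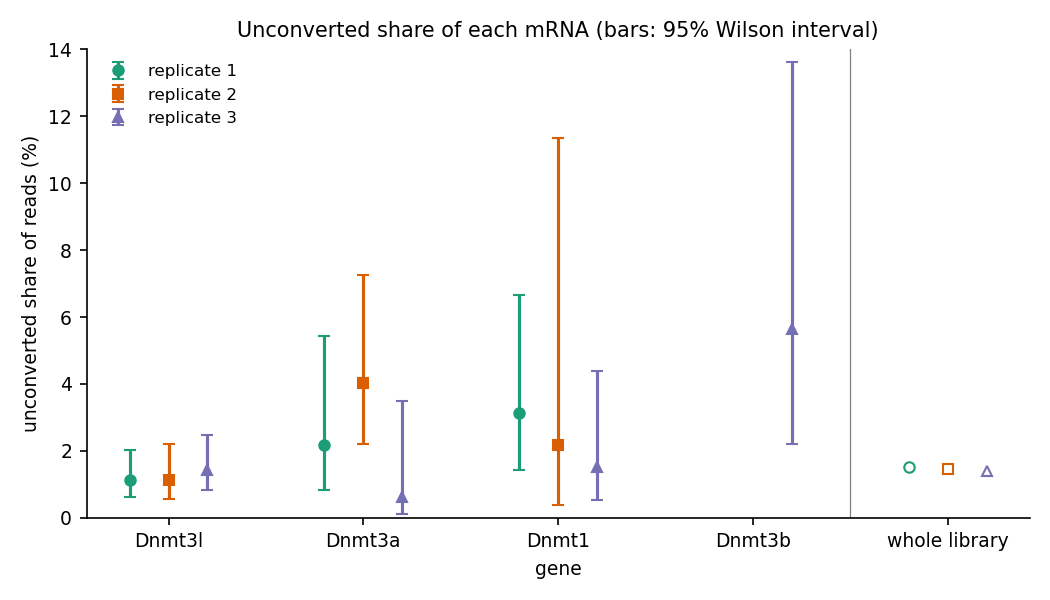
Unconverted share of reads in percent (vertical) for each gene with rows and for the whole library (right of the line), in replicates 1 to 3; bars are 95% Wilson intervals. Dnmt3l lies at 1.13% to 1.43%, near the library values of 1.41% to 1.53%, and the genes with fewer reads scatter from 0.629% to 5.63%.

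The mean departure of a gene from its library over the 3 samples was tested against the spread between samples. This was done with limma on the log2 ratio of the 2 shares, with a pseudocount of 0.5 unconverted reads. The fit ran across all genes with a summed coverage of at least 1000 in each library. None of the 5 genes reached that coverage. At a minimum of 100, Dnmt3l and Dnmt3a entered the fit, and neither was called, against 8.1% of the 10150 genes tested (4.35% higher and 3.74% lower than their library). The log2 difference was −0.19 ± 0.22 for Dnmt3l (SE, limma adjusted p = 0.688) and 0.54 ± 0.48 for Dnmt3a (SE, limma adjusted p = 0.584). With a pseudocount of 2 the differences were −0.0013 and 1.05. The pseudocount thus raises these differences where unconverted reads are few. Dnmt3l was lower than its library in 2 of 3 samples and Dnmt3a higher in 2 of 3.

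Single cytosines could be tested only in Dnmt3l. A cytosine needed at least 10 reads in each library, which 16 cytosines met, all in NM_001284197.1 between positions 43 and 87. No cytosine of Dnmt1, Dnmt3a, Dnmt3b or Uhrf1 met it. A one-sided exact binomial test compared each count with the library-wide share, library by library. Fisher's method then gave 1 p per cytosine, which was adjusted over the 1639820 cytosines that could be tested. To be called a candidate, a cytosine had to exceed the library in all 3 samples, average 10% or more and have an adjusted p under 0.05.

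No Dnmt3l cytosine was a candidate, against 0.0473% of all testable cytosines, and none passed the adjusted threshold when the 10% minimum was dropped, against 0.469% of all. By the exact binomial tests 0 of the 16 had a combined p under 0.05 before adjustment, against 3.32% of all testable cytosines. With a beta-binomial test 0 of the 16 passed the adjusted threshold, against 2444 of the 1639820 testable cytosines. The lowest unadjusted p was 0.223, from the exact binomial tests. The 16 cytosines had 51 to 124 reads over the 3 libraries, at which 3 reads make a share of 2.42% to 5.88%. That is the limit that a count of 0 would allow. Only 4 of the 16 had no unconverted read, with limits of 2.54% to 4.48%. A mean share of 10.1% to 13.8%, or 7 to 13 reads spread evenly, would have been called a candidate at these depths, a limit that includes the 10% minimum of the rule.

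The unconverted reads of the 16 cytosines were few and scattered. Their summed coverage was 587, 441 and 443 in replicates 1, 2 and 3. Of this, 9, 5 and 7 were unconverted, or 1.53%, 1.13% and 1.58%. All 3 shares had the library value inside their Wilson intervals. Of the 16 cytosines, 4 had no unconverted read in any library, 8 had one in 1 library, 3 in 2 libraries and 1 in all 3.

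The cytosine with unconverted reads in all 3 libraries was position 48, with 2 of 43, 1 of 31 and 1 of 31 reads and the highest mean share, 3.70%. Position 78 had 2 of 39, 0 of 31 and 1 of 29 reads, a mean of 2.86%. Position 69 had 0 of 48, 3 of 37 and 0 of 35, a mean of 2.70% that rests on replicate 2 alone. Position 80 followed with a mean of 2.60% and position 43 with 2.08%. Positions 48 and 43 lie upstream of the stretch that spacing makes common to both models, and positions 69, 78 and 80 within it.

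Below 10 reads, only 1 further cytosine had an unconverted read in each library, and it is named because of these values. Position 100 of NM_001284197.1 was unconverted in 1 of 9, 1 of 4 and 1 of 7 reads, in sum 15.0% (95% Wilson interval 5.24% to 36.0%, 20 reads). The cytosine of NM_019448.4 matched to it by spacing, at position 113, was unconverted in 0 of 18 reads. Over both models the share was 7.89% (Wilson interval 2.72% to 20.8%). Position 100 was not testable at a coverage minimum of 10, nor at 5. At a minimum of 5, 43 cytosines of Dnmt3l and 9 of Dnmt3a were tested by the exact binomial method and none was a candidate. Over all mRNAs 822 of 2414426 cytosines were candidates at this minimum, so none is the usual outcome for so few cytosines.

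The sequence context was known for the matched stretches only. In Dnmt3a NM_007872.4, 15 of the 30 matched cytosines stood before G and 15 before another base. The cytosines before G were unconverted in 4 of a summed coverage of 133 over the 3 libraries (3.01%) and the others in 6 of 144 (4.17%). Replicate 3 had no unconverted read in either context. In Dnmt1, 1 of a summed coverage of 28 before G and 0 of 27 before other bases were unconverted. The counts are too small to set the contexts apart.

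Genes whose unconverted share was most like that of these genes were sought over the 3 libraries, by the summed absolute difference among genes of 0.5 to 2 times the summed coverage. Dnmt3l was closest to Zfp873 and Frs3, which differed by 0.0605 and 0.0718 percentage points in sum, among 2175 genes. Dnmt1 was closest to Uchl5 and Urgcp (0.152 and 0.412 percentage points) and Dnmt3a to Otud7b and Fbxl21 (0.621 and 0.712). With 1 to 12 unconverted reads per library behind each of the shares of Dnmt1, Dnmt3a and Dnmt3l, these are descriptions of low counts.

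Among partners of the methyltransferases, genes with several models likewise had a lower median number of listed cytosines than genes with 1 model. A list of 30 genes held partners of DNA methylation, readers of methylated DNA, enzymes of the methionine cycle, which supplies the methyl donor, and Trdmt1, a family member that methylates transfer RNA. Rows were found for 29 of them, all but Ehmt2, a histone methyltransferase. The 15 listed genes with several models had a median of 107 listed cytosines (range 11 to 533). The 14 genes with 1 model had a median of 467 (range 162 to 1113). The ranges overlapped widely, and this difference was not tested. Uhrf2, the paralogue of Uhrf1, has 1 model and was listed at 708 cytosines, while Uhrf1 was listed at none. Of 6520 testable cytosines in 24 of these genes, 3 were candidates (0.0460%, near the 0.0473% of all). They were position 2218 of Uhrf2 at 12.2% ± 2.97, position 92 of Mbd3, a subunit of a deacetylase complex, at 12.3% ± 5.73, and position 528 of the corepressor gene Trim28 at 10.2% ± 3.38 (SD, n = 3).

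The limma fit over genes with a summed coverage of at least 1000 in each library held 22 of the list genes. Of these, 3 were called higher than their library and 2 lower, against 7.62% and 6.76% of the 7353 genes tested. The median log2 difference was 0.0080 in the list and −0.0040 over all genes. The highest values were those of Mbd2, a reader (0.40 ± 0.14, SE, limma adjusted p = 0.0449), Mat2b, a subunit of the enzyme that makes the methyl donor (0.26 ± 0.14, limma adjusted p = 0.255), and Trim28 (0.17 ± 0.01, limma adjusted p = 3.04e-18). The lowest were those of the deacetylase gene Hdac1 (−0.15 ± 0.03, limma adjusted p = 0.000266), Uhrf2 (−0.13 ± 0.05, limma adjusted p = 0.104) and Kdm2b (−0.12 ± 0.06, limma adjusted p = 0.248). The 2 other called genes, named to complete the count, were Hells, a chromatin remodeller (0.15 ± 0.04, limma adjusted p = 0.0192), and its partner gene Cdca7 (−0.11 ± 0.03, limma adjusted p = 0.0108).

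Summed coverage over all cytosines was 139884444 to 151362866 per library and the unconverted share 1.41% to 1.53%. All 12 stem cell markers had rows and took 0.572% ± 0.0163 of the coverage. Their mean coverage per listed cytosine ran from 3.13 reads in Esrrb to 2037 in Dppa5a. Testable cytosines were found in 10 of these markers, with none in Nanog or Esrrb. The 12 fibroblast markers, chosen for the feeders, took 0.0470% ± 0.0117 and differed between libraries, from 0.0361% to 0.0593%, with Postn, Lum and Dcn not listed, and 12 markers of early differentiation 0.0438% ± 0.00183, with 8 listed (SD, n = 3 for each). Of the listed differentiation markers, Krt8 and Krt18 had a mean coverage of 97.7 and 52.4 reads per listed cytosine, and the others 3.00 to 4.36. What part feeder RNA has in the reads of the methyltransferase genes was not tested.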

How the data were processed

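Bisulfite-treated mRNA of 3 samples of 1 group was analysed. Per the submitters' processing notes, BSMAP and the mm9 build were used; the sources used here name no version, counting step or annotation. The deposited tables give each cytosine's coverage as a count of reads, not normalised, and the unconverted part of it as a fraction. Their product was whole, within 1e-06, for every row, and was taken as the unconverted reads. Identifiers were matched to symbols by accession without version in an annotation of GRCm38.p6 (14928 of 15021), which also gave the number of curated models per gene. Promoter sequences are RefSeq's, of GRCm38.p6.

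Site tests used scipy 1.17.1 and gene tests limma 3.58.1 (coverage as trend, Benjamini-Hochberg over all genes). Both were run on simulated data, with outcomes not given here. Simulated site counts were binomial at the library share, apart from cytosines set higher. They held no further spread between cytosines, so these runs do not show how the site test behaves under such spread. No gene of the 5 reached the coverage minimum of 1000 set for the gene test, so the alternative of 100 is reported. Named were all 5 genes, their 5 testable cytosines with the highest mean share, the 2 likest genes each, and list genes with a candidate or among the 3 highest or lowest log2 differences; Uhrf2 and Ehmt2 as genes with and without rows, the called genes Hells and Cdca7, and position 100 of Dnmt3l and 1968 of Dnmt3b, were named after their values were seen. The genes and lists were chosen with earlier results of these data known. The labels do not state if the 3 samples are separate cultures, so p-values measure a spread that may be technical. Alternatives were other coverage and level minimums, backgrounds, tests, pseudocounts and leaving out each replicate.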

Additional observations from a re-analysis of the deposited data

How the results depend on the processing

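The 5 genes had 0 candidate cytosines, and 0 that passed the adjusted threshold without a level minimum, under each alternative run: coverage minimums of 5 and 20, the gene's own share as background, the highest of the 3 p-values, a beta-binomial test, level minimums of 5% and 20% (candidates only), and without each replicate. With 11 to 52 cytosines of these genes tested, this says little about the rest of the mRNAs. Candidates were rare over all mRNAs too, with 822 of 2414426 cytosines at a coverage minimum of 5 and 489 of 1006584 at 20. No gene test called any of the 5 genes, but only the coverage minimum of 100 admitted any. The mean log2 difference of Dnmt1 from its library was 0.87 and became 1.43 with a pseudocount of 2 reads. That of Dnmt3l, −0.19, was 0.04 with testable cytosines only, and that of Dnmt3a ran from 0.04 to 1.10 without each replicate. Counting unlisted cytosines as 0 gave mean coverages of 9.11 (Dnmt3l), 4.03 (Dnmt3a) and 2.23 (Dnmt1) reads. Median coverage was 7.33 ± 0.577 reads in Dnmt3l, 4.33 ± 0.577 in Dnmt3a and 3.67 ± 0.577 in Dnmt1 (SD, n = 3). By median coverage the library values of Dnmt3a and Dnmt1 overlapped, so these genes were not apart. The most covered model alone gave 19.3 in Dnmt3l and 7.19 in Dnmt3a. The order of the genes by their mean over libraries was the same under each alternative. The share of Dnmt3l reads on NM_001284197.1, 73.8%, was 81.0% at the most covered common cytosine, an alternative chosen after seeing the data, and 71.5% to 77.3% without each replicate. Depth limits all of these: 16 of 226 listed cytosines had 10 reads in each library. No paired analysis was possible because there was 1 group.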
